A study of Mus musculus with 14 samples.

Results

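A set of 9 genes that mark the red blood cell lineage was followed through 14 ChIP-seq peak lists, each giving the positions at which the antibody to 1 transcription factor (TF) recovered DNA. They were the α-like globins Hba-x and Hba-a1, the β-like globins Hbb-y, Hbb-bh1 and Hbb-bt, the transcription factor gene Klf1, the heme enzyme gene Alas2, the erythropoietin receptor gene Epor and the membrane transporter gene Slc4a1. The 9 genes were chosen by name, from 21774 protein-coding genes of the RefSeq annotation of the mouse genome (build GRCm38). A gene was counted as bound in a list when a peak overlapped its span or the 20 kb on either side by at least 1 bp, and the 60 kb upstream of Hba-x and of Hbb-y were read as additional control regions of the globin clusters. These windows and regions held 65 of 158488 peaks in all, at 6 separate loci. All peaks were 400 bp wide.

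The study mapped the factors in 5 populations that mouse embryonic stem (ES) cells of strain 129 with a Brachyury-GFP reporter pass through on the way to macrophages. Mesoderm (MES) was sorted as reporter-positive and FLK1-negative cells, hemangioblast (HB) as positive for both, hemogenic endothelium (HE) by Tie2 and Ckit without CD41, hematopoietic progenitors (HP) by CD41, and macrophages (MAC) by CD11b after terminal differentiation of CD41+ cells. C/EBPβ was mapped at all 5 stages, PU.1 (encoded by Spi1) and RUNX1 in HP and MAC, and GATA2 in HB and HP. GATA1 and GFI1B were mapped in HP, and ELK4 in MES. Other factors of the study, among them TAL1 and LMO2 in HP, are not in the lists read here. Each combination of stage and factor was 1 list without replicates or peak scores, so the counts below are descriptions of these lists, no test could be made between stages or factors, and a gene with no peak is a gene without a call and not one shown to be unbound. None of the sorted populations was selected for red cell markers, and the CD41 sort can hold cells of more than 1 lineage, so that binding in few cells and weak binding in many cannot be told apart.

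Hemoglobin is built from α-like and β-like globin chains, whose genes lie in clusters in which embryonic genes precede the adult ones in the order of transcription. Both clusters are controlled from a distance. The major enhancers of α-globin lie upstream of the cluster, in introns of the unrelated housekeeping gene Nprl3, and the β-globin genes share an upstream locus control region. GATA1, which binds the core letters GATA, often together with TAL1 and KLF1, is a master activator of these genes and of heme synthesis. PU.1 and C/EBPβ are factors of myeloid cells, and PU.1 and GATA1 are known to antagonise each other.

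GATA1 in HP, the factor most closely tied to the red cell lineage among those in these lists, had 3 peaks at these loci. Their central 200 bases are shown to set their GATA words, or lack of them, side by side. A GATA word was AGATAA on either strand, or AGATAG, which differs from it at the end, or the same words with a T at the beginning (TGATAA and also TGATAG), and is in capitals where present. All sequences from peaks are from the plus strand of GRCm38, read 5′ to 3′. The peaks lay in an intron of Nprl3 (chr11:32245731-32245930), in intron 1 of Alas2 (chrX:150549722-150549921) and in intron 1 of Epor (chr9:21962552-21962751).
Nprl3 intron, upstream of Hba-x: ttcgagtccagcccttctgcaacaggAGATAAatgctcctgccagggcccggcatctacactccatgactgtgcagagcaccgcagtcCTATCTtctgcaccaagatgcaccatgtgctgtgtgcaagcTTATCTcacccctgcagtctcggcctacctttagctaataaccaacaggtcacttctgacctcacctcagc
Alas2 intron 1: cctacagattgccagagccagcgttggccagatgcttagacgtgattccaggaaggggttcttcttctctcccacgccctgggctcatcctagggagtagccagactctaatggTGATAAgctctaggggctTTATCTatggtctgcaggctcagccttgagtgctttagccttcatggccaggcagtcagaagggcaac
Epor intron 1: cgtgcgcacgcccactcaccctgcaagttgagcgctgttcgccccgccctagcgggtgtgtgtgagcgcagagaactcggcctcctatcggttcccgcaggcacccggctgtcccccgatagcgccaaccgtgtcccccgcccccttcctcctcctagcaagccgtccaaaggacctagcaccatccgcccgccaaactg

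The Nprl3 peak was centred 30.8 kb upstream of Hba-x in intron 7 of Nprl3, and no other list held a peak at this position. It contained 3 GATA words, 9, 32 and 71 bp from its centre. In 2 of them CTG preceded the GATA word by 7 or 8 bases, an arrangement known from sites shared by GATA1 and TAL1. This arrangement was found in 40.8% of all 250 HP GATA1 peaks, 21.9% of HP GATA2, 15.3% of HP GFI1B and 4.02% of HP PU.1 peaks. The Alas2 peak was centred 2.4 kb downstream of the start of the gene. It held 2 GATA words, 1 of which had the CTG arrangement, and overlapped a MAC PU.1 peak by 229 bp. The Epor peak was centred 924 bp downstream of the start. It held none of the GATA words, although 90.4% of HP GATA1 peaks did and 24 did not. Its only GATA cores were 2 copies of CGATAG, 13 and 19 bp from the centre, and the peak met a MAC PU.1 peak over 7 bp. Of the 24 HP GATA1 peaks without a GATA word, 15 had a GATA core with other neighbours. The share of peaks of other lists with such a core was not counted, so these cores are not shown to be sites of GATA1.

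None of these 3 peaks overlapped a peak of HP GATA2, GFI1B or RUNX1. In the whole HP GATA1 list 157 of 250 peaks (62.8%) overlapped at least 1 of these, with 41.6% on GATA2, 36.8% on GFI1B and 27.2% on RUNX1 peaks. With 3 peaks, no difference from the list can be read from this. By gene, 2 of the 9 members held a HP GATA1 peak, Alas2 and Epor, beside 1.75% of all coding genes. The Nprl3 peak lay outside the window of every member. For the 60 kb upstream of a coding gene the share with a HP GATA1 peak was 1.56%.

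**Figure D1:**
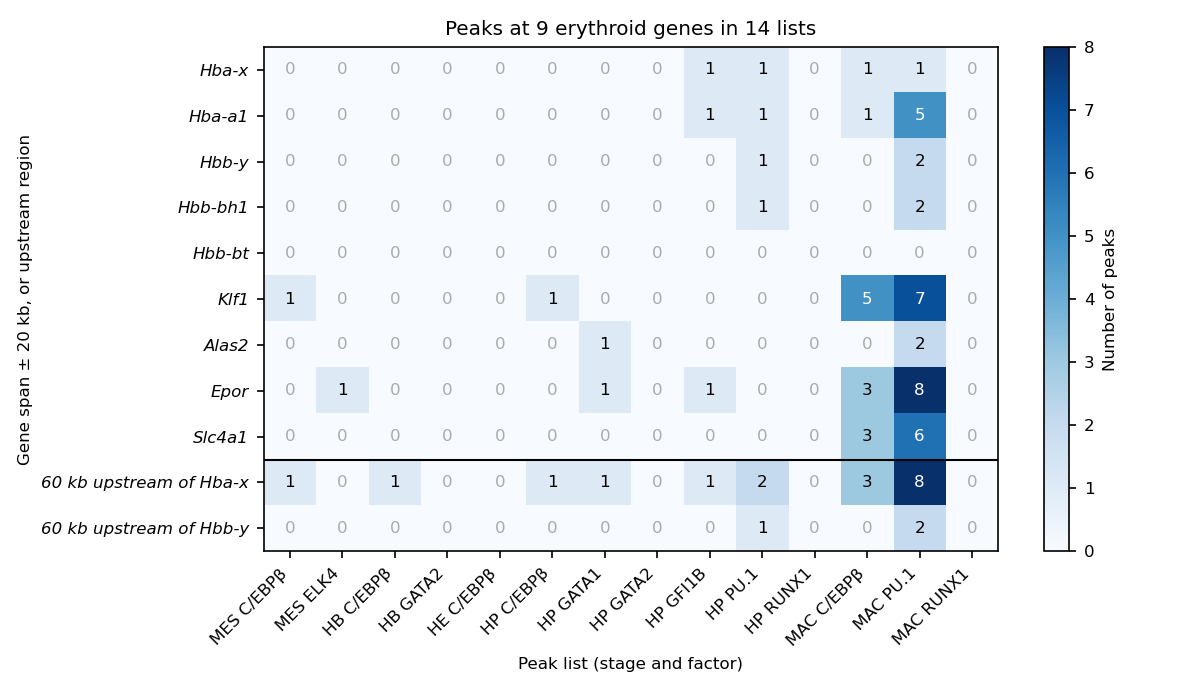
Number of peaks (colour and printed digit) at each of the 9 genes (rows, span ± 20 kb) and in the 60 kb upstream of Hba-x and Hbb-y (last rows), for each of the 14 lists (columns). MAC PU.1 reached 8 peaks at Epor, and Hbb-bt had 0 in every list.

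Among the 126 combinations of list and gene, 25 held at least 1 peak, 13 in MAC, 10 in HP and 2 in MES, as the matrix of counts by gene and list shows. The windows of Hba-x and Hba-a1 share sequence, as do those of the β-like genes, so these combinations are not independent. The longest lists gave most of the peaks. PU.1 in MAC, with 82866 peaks in all, was found at 8 of the 9 genes, against 79.1% of all coding genes, and C/EBPβ in MAC, with 55471, at 5 of 9, against 73.8%. A coding gene had a median of 4 MAC PU.1 and 2 MAC C/EBPβ peaks, whereas the members had between 0 and 8 and between 0 and 5. In HP, 4 members held a PU.1 peak (38.2% of coding genes), 3 a GFI1B peak (11.8%) and 1 a C/EBPβ peak (14.8%), and none held a peak of GATA2 (3.36%) or RUNX1 (7.79%). In MES, 1 member held a C/EBPβ peak (6.47%) and 1 an ELK4 peak (4.66%). No member held a peak of C/EBPβ or GATA2 in HB (4.24% and 0.363%), of C/EBPβ in HE (0.684%) or of RUNX1 in MAC (0.478%). At these background shares, 0 of 9 genes cannot be told from the share of the genome.

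Merging overlapping peaks of all lists gave 46 sites, 35 of them found in 1 list and 11 in at least 2. Of the 46 sites, 37 held only MAC PU.1 or MAC C/EBPβ peaks, and 9 held a peak of an HP list. The nearest coding start site belonged to a member at 12 sites and to another gene at 34, so that most assignments below rest on the 20 kb window.

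The α-globin cluster, on chromosome 11, held 15 sites with 22 peaks. Hba-x, the embryonic α-like globin gene (chr11:32276600-32278116, plus strand), had 1 peak each in the lists HP GFI1B, HP PU.1, MAC C/EBPβ and MAC PU.1. Hba-a1, an adult α-globin gene (chr11:32283672-32284486, plus strand), had these same 4 peaks and 4 more of MAC PU.1, centred between 17.1 and 20.3 kb downstream of its start, in exon 3 of the θ-globin gene Hbq1a at the end of the cluster or past it. No peak of any list lay in the span of Hba-x or Hba-a1. The 60 kb upstream of Hba-x held 18 peaks of 8 lists. There were 8 peaks of MAC PU.1, 3 of MAC C/EBPβ, 2 of HP PU.1 and 1 each of HP GATA1, HP GFI1B, HP C/EBPβ, HB C/EBPβ and MES C/EBPβ. The shares of coding genes with a peak in the 60 kb upstream were 76.5%, 70.2% and 32.9% for MAC PU.1, MAC C/EBPβ and HP PU.1, and 10.2%, 12.7%, 3.52% and 5.22% for HP GFI1B, HP C/EBPβ, HB C/EBPβ and MES C/EBPβ.

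**Figure D2:**
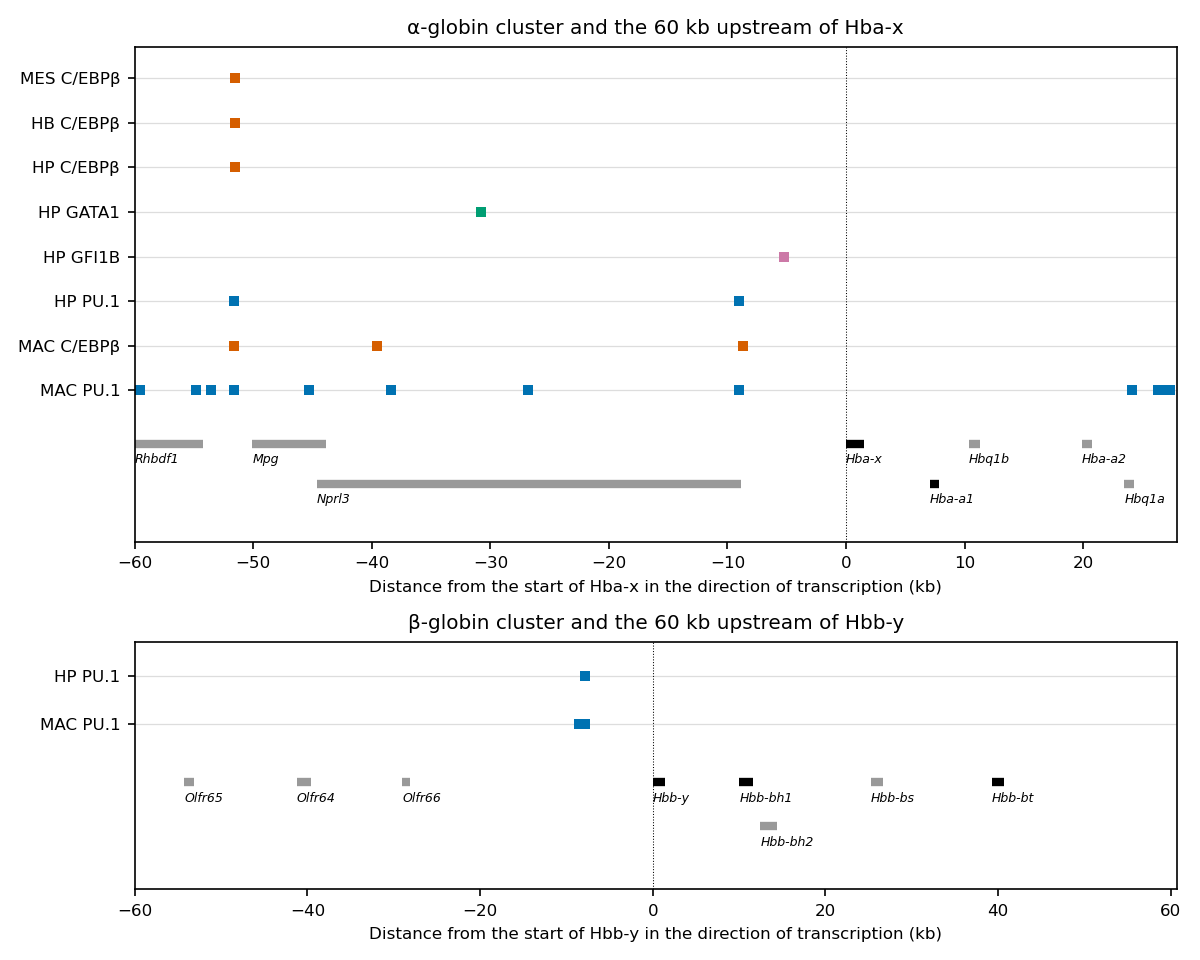
Peak centres (squares, coloured by factor) of each list with a peak, against the distance in kb from the start of Hba-x (top) and Hbb-y (bottom) in the direction of transcription, with coding genes as bars below (black, the genes described). The α side carries 18 peaks in the 60 kb upstream and the β side 3, and no peak lies over a globin gene described here.

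The α-globin side also held the site shared by the most lists. It was intergenic, between Rhbdf1 and Mpg, 51.6 kb upstream of Hba-x (chr11:32224746-32225222), and its nearest coding start was that of Mpg. C/EBPβ had a peak there in MES, HB, HP and MAC, and PU.1 in HP and MAC. The centres of the 4 C/EBPβ peaks lay within 10 bp of each other, and the HP PU.1 centre lay 73 bp from the HP C/EBPβ centre. The central 200 bases of the HP C/EBPβ peak (chr11:32224919-32225118) are printed because this is the 1 position at these genes that was called at 4 stages, with the C/EBP word (TTGCNNAA, either strand) in capitals.
Between Rhbdf1 and Mpg: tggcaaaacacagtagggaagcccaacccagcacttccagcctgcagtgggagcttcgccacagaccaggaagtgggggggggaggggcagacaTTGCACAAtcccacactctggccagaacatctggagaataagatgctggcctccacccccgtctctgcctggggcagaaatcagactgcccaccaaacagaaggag

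The word TTGCACAA was centred 2 bp from the HP C/EBPβ peak centre. C/EBP words were found in 64% of HP, 61.3% of MES and 59.2% of HB C/EBPβ peaks. No PU.1 word (GAGGAAGT) was found in either PU.1 peak at this site. The printed stretch holds CAGGAAGT, which differs from that word at its first base. Of 56276 merged C/EBPβ regions, 296 (0.526%) were called in exactly MES, HB, HP and MAC. The HE list, with 132 peaks in all and a C/EBP word in 26.5% of them, held no peak here.

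Closer to the genes, PU.1 in HP and in MAC had a peak at the same position to the base, in exon 1 of Nprl3, 9.03 kb upstream of Hba-x. A MAC C/EBPβ peak touched it over 29 bp from the far side of the Nprl3 start. GFI1B, a repressor needed for red cell and platelet formation, had a peak 5.27 kb upstream of Hba-x between Nprl3 and the cluster, and no other list had one there. Its central 200 bases (chr11:32271231-32271430) are shown as the position nearest to the start of any of the 5 globin genes described, over all lists. No letter is in capitals, since the GFI1B word searched (AATCNNNGC, either strand) was not found in this peak, whereas 44.9% of HP GFI1B peaks held it. The stretch holds AATCACTGT, which differs from the word at its last base, and such near matches were not counted in the list.
Upstream of Hba-x: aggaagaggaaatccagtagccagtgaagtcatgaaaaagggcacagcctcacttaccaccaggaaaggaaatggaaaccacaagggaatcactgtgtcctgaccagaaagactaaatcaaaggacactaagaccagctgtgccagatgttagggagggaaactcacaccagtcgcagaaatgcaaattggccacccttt

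A RUNX word (TGTGGTT, either strand) was found once in the full 400 bp of this GFI1B peak, as in 15.8% of the HP GFI1B list, and no GATA word was present, against 55.6% of the list. MAC PU.1 had 1 peak in intron 6 of Nprl3, 26.8 kb upstream of Hba-x, with a PU.1 word, which 24.4% of MAC PU.1 peaks held. It was separate from the HP GATA1 peak at 30.8 kb.

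The β-globin cluster, on chromosome 7, held 2 sites with 3 peaks. Hbb-y (chr7:103851754-103853207, minus strand) and Hbb-bh1 (chr7:103841638-103843162, minus strand), which encode embryonic β-like chains, shared the same 3 peaks, 1 of HP PU.1 and 2 of MAC PU.1. Hbb-bt, an adult β-globin gene (chr7:103812524-103813923, minus strand), had none in any of the 14 lists, as had 18.2% of coding genes. The 3 peaks fell on 2 sites, 7.8 and 8.51 kb upstream of Hbb-y, and were the only ones in its 60 kb upstream region. GATA1, GATA2, GFI1B, RUNX1, ELK4 and C/EBPβ had no peak in the β-globin windows or the upstream region. The HP PU.1 peak is shown by its central 200 bases (chr7:103860910-103861109), since it was the only HP peak of any factor at the cluster, with the PU.1 word in capitals.
Upstream of Hbb-y: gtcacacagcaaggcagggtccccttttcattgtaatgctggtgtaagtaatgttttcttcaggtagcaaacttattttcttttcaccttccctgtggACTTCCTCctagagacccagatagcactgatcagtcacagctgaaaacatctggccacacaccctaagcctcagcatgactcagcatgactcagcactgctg

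The PU.1 word was centred 2 bp from the centre of the HP PU.1 peak, and the MAC PU.1 centre lay 11 bp away. PU.1 words were found in 42.1% of HP PU.1 peaks. The same peak held AGATAG, 19 bp from the centre (47.7% of HP PU.1 peaks held a GATA word), and 2 copies of TGACTCA in tandem, visible in lower case near the end of the printed stretch. TGANTCA is the word read by AP-1 and by the erythroid factor NF-E2, and 14% of HP PU.1 peaks held it at least once. Tandem NF-E2 sites are a known feature of an element of the locus control region. Only 1 of the 3 HP PU.1 peaks at the globin clusters held a PU.1 word.

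How readily the globin genes can be read matters for these counts, because the authors kept reads with 1 position in the genome. The share of 50-base stretches that occur once in GRCm38 was 6.13% within the span of Hba-a1 and 6.47% in its near copy Hba-a2, and 27.4% in Hbb-bt and 27.7% in its near copy Hbb-bs. It was 97.2% in Hba-x, 100% in Hbb-y and Hbb-bh1, and between 96% and 100% in Klf1, Alas2, Epor and Slc4a1. The absence of a peak over Hba-a1 or Hbb-bt itself therefore carries little information. Over the 20 kb windows the share was 86.1% for Hba-a1 and 72.2% for Hbb-bt, and in the upstream regions 98.1% (α) and 94.6% (β). The part of readable sequence in the counts of 18 and 3 peaks upstream of the clusters was not tested. The reference genome is that of strain C57BL/6J, which carries its own haplotype of adult β-globin genes, and the cells were of strain 129. The part of this difference in the Hbb-bt counts was not tested.

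Epor encodes the receptor through which erythropoietin keeps red cell progenitors alive. It was found in the most lists of the 9 genes, 5, with 14 peaks at 9 sites (chr9:21958897-21963576, minus strand). These were 8 peaks of MAC PU.1, 3 of MAC C/EBPβ and 1 each of HP GATA1, HP GFI1B and MES ELK4. Besides intron 1, described above, the gene held a MAC PU.1 peak centred 77 bp downstream of its start, in exon 1. In the set of GRCm38.p6 promoters read here, a sequence was matched for 7 members and not for Hbb-bh1 or Slc4a1. Among the 7, Epor was the only one whose promoter, from before to just past the start, was overlapped by a peak of any list. The stretch before the start is printed for this reason (chr9:21963577-21963826, minus strand, in the direction of transcription), with capitals on the GATA word and on words of the CACCC type (CCNCNCCC, either strand), which KLF1 and related factors read.
Epor upstream of the start: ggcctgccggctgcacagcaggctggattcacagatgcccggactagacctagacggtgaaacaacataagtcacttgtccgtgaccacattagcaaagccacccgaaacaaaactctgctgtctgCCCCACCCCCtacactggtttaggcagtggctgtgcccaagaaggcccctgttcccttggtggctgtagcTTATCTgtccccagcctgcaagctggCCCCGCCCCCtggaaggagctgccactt

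The MAC PU.1 peak held 1 GATA word, 129 bp from its centre, and no PU.1 word. GATA words were found in 29.8% and words of the CACCC type in 49.5% of the 32851 promoters of the same length. Among the 7 member promoters, Hba-x had 2 GATA words, Hba-a1, Hbb-y, Klf1, Alas2 and Epor had 1 each and Hbb-bt none, and Klf1 alone of them had the CTG arrangement (1.77% of promoters). Apart from Epor, none of these promoters carried a peak in any list.

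Downstream of Epor, 13 kb from its start and past the gene Swsap1, GFI1B in HP and ELK4 in MES, an ETS factor that acts with serum response factor, had centres 32 bp apart. A MAC C/EBPβ peak overlapped them. Of the HP GFI1B peaks, 1.19% overlapped a MES ELK4 peak. Neither the GFI1B word nor the ELK4 word (CCGGAAGT, present in 9.35% of MES ELK4 peaks) was found. The GFI1B peak held AATCACAGT, which differs from the GFI1B word at its last base. Both the GFI1B and the ELK4 peak held 1 GATA word with the CTG arrangement, which 15.3% of HP GFI1B and 1.53% of MES ELK4 peaks held. At 5.93 kb upstream of Epor, MAC PU.1 and MAC C/EBPβ centres lay 6 bp apart with a C/EBP word.

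**Figure D3:**
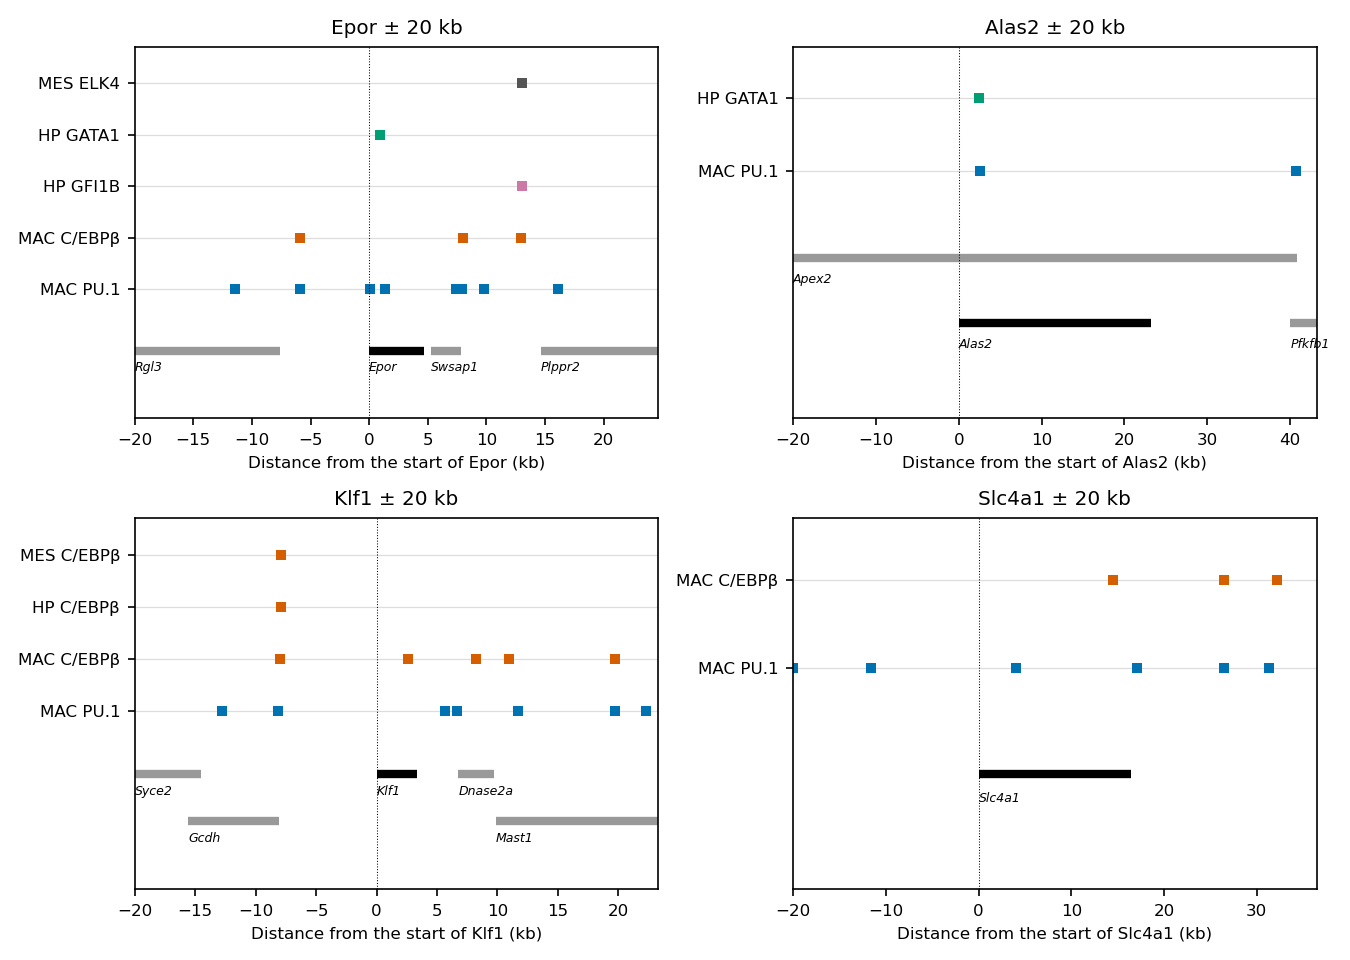
Peak centres (squares, coloured by factor) of each list with a peak, against the distance in kb from the start of Epor, Alas2, Klf1 and Slc4a1 in the direction of transcription, with coding genes as bars below (black, the gene described). The HP GATA1 peaks lie 924 bp downstream of the start of Epor and 2.4 kb downstream of that of Alas2, and Slc4a1 has MAC peaks only.

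Alas2 encodes the red cell form of the enzyme that opens heme synthesis (chrX:150547417-150570622, plus strand). It had 3 peaks, the HP GATA1 and MAC PU.1 peaks of intron 1 and a MAC PU.1 peak 40.7 kb downstream of its start, at the start of the neighbouring gene Apex2, whose annotated span overlaps Alas2. No C/EBPβ list had a peak in the window. The Alas2 set of lists, HP GATA1 and MAC PU.1 only, was found at 5 other coding genes, among them Trim10, an erythroid gene. The Epor set was found at 3 others.

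Klf1 encodes the factor that activates the adult β-globin gene and many other red cell genes (chr8:84901982-84905291, plus strand). It had 14 peaks at 10 sites, 7 of MAC PU.1, 5 of MAC C/EBPβ and 1 each of HP and MES C/EBPβ. No GATA1, GATA2, GFI1B or RUNX1 peak was called in its window. The C/EBPβ peaks of MES, HP and MAC overlapped at the start of Gcdh, about 8 kb upstream of Klf1, in a site that also held a MAC PU.1 peak (chr8:84893660-84894260). The MAC PU.1 peak overlapped them by 199 to 241 bp. The MES and HP centres lay 8 bp apart, and the MAC centre 34 bp from that of HP. All 3 held 2 C/EBP words, the nearer of them, TTGCGAAA, 20 bp from the HP centre. C/EBPβ regions called in exactly these 3 stages numbered 232 (0.412%), and the shortest distance to a gene start was to Gcdh and not to Klf1. Within Klf1 itself the only peak was of MAC C/EBPβ, in intron 2, 2.63 kb from the start, without a C/EBP word. The set of lists at Klf1 was found at 101 other coding genes.

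Slc4a1 encodes band 3, the anion exchanger that anchors the red cell membrane to its skeleton (chr11:102348820-102365281, minus strand). It had 9 peaks at 8 sites, 6 of MAC PU.1 and 3 of MAC C/EBPβ, and none in MES, HB, HE or HP. A MAC PU.1 peak with a PU.1 word lay in exon 3, 4.03 kb downstream of the start, and a MAC C/EBPβ peak in intron 19. Another MAC PU.1 peak, 11.6 kb upstream, was centred in exon 1 of Bloodlinc, a noncoding RNA of red cells. It held a PU.1 word and 2 GATA words. The set of lists at Slc4a1, both long MAC lists and no other, was the commonest of the members' sets, with 4922 other coding genes (22.6%).

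Across the 6 loci the word of the precipitated factor was found in some peaks and not in others. Both HP and both MES C/EBPβ peaks and the HB C/EBPβ peak held a C/EBP word, as did 8 of 14 MAC C/EBPβ peaks (41.9% of that list). The HP, MES and HB peaks lay only at the site between Rhbdf1 and Mpg and at the start of Gcdh. MAC C/EBPβ had a peak at both, so the same words were counted again in each list. A PU.1 word was found in 9 of 37 MAC PU.1 peaks. GATA words were found in 15 of these 37 peaks, and in 45.1% of the whole list.

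**Figure D4:**
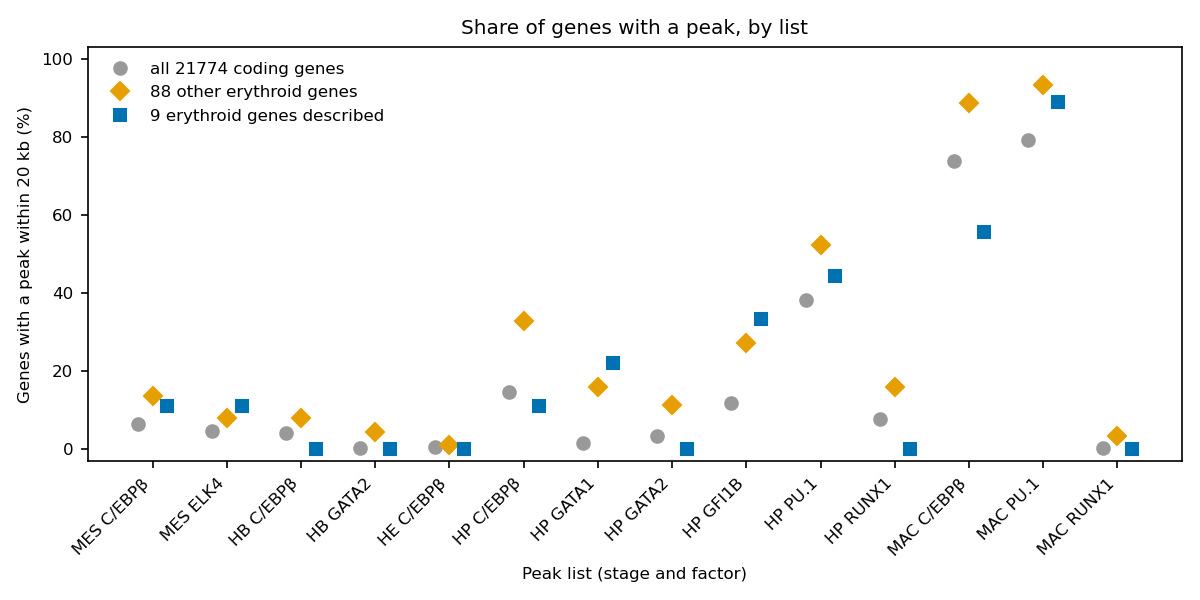
Percent of genes with a peak within 20 kb (vertical axis) in each list (horizontal axis), for all 21774 coding genes (grey circles), 88 other erythroid genes (orange diamonds) and the 9 genes described (blue squares). For HP GATA1 the values were 1.75%, 15.9% and 22.2%.

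A wider list of 88 other erythroid genes was read in the same way, by role, as the plot of shares of genes with a peak shows. Of these, 67 (76.1%, against 49.8% of coding genes) had a peak in at least 1 HP list and 36 (40.9%, against 19.4%) a peak of GATA1, GATA2, GFI1B or RUNX1 in HP. No peak of any list was found at 4 (4.55%, against 18.2%), Slc25a37, Kel, Xk and Car1. HP GATA1 was found at 14 (15.9%, against 1.75% of coding genes), HP GATA2 at 10 (11.4%, against 3.36%), HP GFI1B at 24 (27.3%, against 11.8%), HP RUNX1 at 14 (15.9%, against 7.79%), HP C/EBPβ at 29 (33%, against 14.8%) and HP PU.1 at 46 (52.3%, against 38.2%). MAC C/EBPβ was found at 78 (88.6%, against 73.8%) and MAC PU.1 at 82 (93.2%, against 79.1%).

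Of 11 genes of heme synthesis, 3 held a HP GATA1 peak. It was centred 10 bp upstream of the start of Cpox and 165 bp downstream of that of Ppox, enzymes of consecutive late steps of the pathway, and 5.74 kb upstream of Abcb10, a mitochondrial transporter. Of 18 erythroid transcription factor genes, 6 held one, namely Tal1, Lyl1, Nfe2, Gfi1b, Cbfa2t3 and the GATA1 cofactor gene Zfpm1, which had 4. Lyl1 and Gfi1b had 2 HP GATA1 peaks each and Tal1, Nfe2 and Cbfa2t3 had 1. The nearest HP GATA1 peak was 248 bp downstream of the Tal1 start, 249 bp downstream of the Lyl1 start and 146 bp upstream of the Nfe2 start. Among 20 membrane and skeleton genes 2 did, Gypc, with 2 peaks and the nearest in intron 1, and Sptb in intron 1, and among 10 red cell enzyme and chaperone genes 2 did, Prdx2 in intron 3 and Hk1 in intron 4. Trim10 was the only 1 of 9 late erythroid genes, with the peak 69 bp upstream of its start. The 12 genes of erythropoietin and kit signalling and the 8 of iron handling held no HP GATA1 peak, which at a background of 1.75% cannot be told from the share of the genome. Gata1 had no peak of HP GATA1 and 1 of HP GFI1B.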

How the data were processed

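The deposited data were peak positions, the start and end of each ChIP-seq peak in base pairs, with no height, score or p-value. Before deposit, the authors, as their methods state, trimmed reads with CutAdapt, aligned them with Bowtie to mm10 (GRCm38), kept uniquely placed reads, removed duplicates with Picard, called peaks with MACS against the input of the same stage at a p-value threshold chosen by eye for each list, refined them with polyPeak and set them to 400 bp around the summit. Technical runs were merged for some lists, and mouse mRNA and recombinant histone 2B served as carriers for HE. For MES and HB C/EBPβ, HB GATA2 and MAC RUNX1 the authors give no qPCR enrichment, and they sequenced such samples nonetheless. GATA words were found in 49.5% of HB GATA2 and 83.4% of HP GATA2 peaks. The version of each program is not given in the sources used here. Because thresholds were set by list, list lengths and counts do not measure amounts of binding. The peak lists carry no read depth, and the aligned read totals that the study tabulates were not used here.

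Peaks were assigned to a gene by overlap of at least 1 bp with its RefSeq GRCm38 span ± 20 kb, merged into sites where they overlapped, and searched on both strands for 9 consensus words. The share of all coding genes, of all peaks of a list or of all promoters under the same rule stands beside the main counts. The members, the windows and the lists of genes were chosen with earlier results of these data known. The genes named are the 9 members, neighbours at their sites, other globin genes, and other erythroid genes with a HP GATA1 peak or a shared set of lists. Gata1 and the 4 genes without a peak were named after their values were seen. Of 89 other erythroid genes, 1 was not found in the annotation. GATA cores with other neighbours were counted after the words had been searched. Near matches of the other words were not counted, and those named were seen in the sequences afterwards. Alternatives were windows of 10 and 50 kb, the gene span alone, the nearest coding start, larger overlaps, other lengths of the upstream regions, other ways of merging and leaving out 2 long lists. Calculations used Python 3.11.15, NumPy 2.4.6 and Numba 0.67.0, drawings Matplotlib 3.10.9, and the programs were tested on simulated data.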

Additional observations from a re-analysis of the deposited data

How the results depend on the processing

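Of the 25 combinations of list and gene with a peak, 7 remained with the gene span alone, 10 with each peak given to the nearest coding start, and 12 without the 2 long MAC lists, an alternative chosen after seeing the data. Windows of 10 and 50 kb gave 19 and 32. The 21 peaks upstream of the globin clusters became 11 over 40 kb and 26 over 100 kb. The 46 sites became 80 with windows of 50 kb and 9 without the 2 long MAC lists, and 48, 39 and 32 with merging at 200 bp, merging within 500 bp and windows of 10 kb. Peaks with the word of their own factor numbered 25, and 23 in the central 200 bp. The other erythroid genes with an HP peak numbered 67, 60 with 10 kb and 56 with the nearest start. The number of genes with a HP GATA1 peak was 2 in all alternatives for the windows except 50 kb, where the Nprl3 peak came within reach and it was 4. For HP PU.1 it was 4, and 2, 7, 0 and 1 with 10 kb, 50 kb, the span and the nearest start, and HP GFI1B fell from 3 to 0 with the span or the nearest start. For the 8 lists with a peak at a member, 18 counts by list moved by over 1.5 times and 22 did not, and for the 6 lists with none all 30 stayed at 0. No paired analysis was possible because each group held 1 list and no test was made. With no score or depth per peak, weak and strong peaks could not be separated.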
